A study of Mus musculus with 7 samples.

Results

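Isolated H3K9me3 peaks are those of untreated fibroblasts that have no other peak in their surroundings. They were chosen by position and width alone: autosomal peaks of the WT list (chromosomes 1 to 19) with no other WT peak within 50000 bp on either side and a width of at most 1000 bp. Of 23190 WT peaks, 21957 were autosomal and 4682 met the rule, which leaves 17275 other autosomal WT peaks. H3K9me3 was profiled by ChIP-seq in a series of 7 samples, of which the H3K9me3 libraries of WT and KO iMEFs, 1 library each, had a peak list. These iMEFs are immortalized mouse embryonic fibroblasts that carry a conditional allele of Setdb1 (Setdb1 cKO) and came from a line recloned from single cells and picked for its response. WT means the same cKO cells with no treatment, and KO means cells given 4OHT (4-hydroxytamoxifen), which deletes Setdb1, for 4 days and harvested at day 7. Chromatin of both was cut with micrococcal nuclease and precipitated with a polyclonal H3K9me3 antibody. The question asked of the isolated peaks is whether H3K9me3 peaks of the KO list lie at or near them.

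H3K9me3, a histone H3 trimethylated at its lysine 9, marks silent chromatin. Setdb1 writes it mainly at interspersed retroelements, where Trim28 and KRAB zinc finger proteins that read the DNA sequence can bring it. In fibroblasts the study reports Trim28 as mostly dispensable for keeping VL30 retroelements silent. From its sites the mark can spread over neighbouring nucleosomes. The Suv39h enzymes write the same mark at the tandem satellite repeats next to centromeres. LINE-1 elements are long retroelements without terminal repeats that are present in very many copies, whereas endogenous retroviruses (ERVs) such as IAPEz carry long terminal repeats. Peaks measure no expression, so the labelled cell type could not be checked. Of 10 fibroblast genes 0 had an isolated or other autosomal WT peak in or within 5 kb. Most genes of each other list had none either, so this says nothing of the cell type.

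The isolated peaks were almost all absent from the KO list. Of 4682 isolated WT peaks, 30 overlapped a peak of the KO list by 1 bp or more, or 0.641% (Wilson 95% interval 0.449 to 0.913), against 2.42% of all WT peaks. Of the 17275 other autosomal WT peaks, 482 overlapped a KO peak, or 2.79% (2.56 to 3.05). A peak that overlaps a KO peak is called retained here. The 30 retained peaks fell into separate kinds: 11 lay in places with a local background over 10 fragments, most of them on sequence of the major satellite type. The other 19 lay on ordinary background and had WT pileups of 9 to 16. With 1 library per group there is no replicate check and no test between WT and KO, and all intervals cover counting error only.

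Sequences are shown first for the satellite type, because 7 of the 30 retained peaks match it. The assembled mm9 sequence of chromosome 9 starts with a tandem array, chr9:3000001-3038000, whose bases repeat with a period of 234 bp, the unit length of the mouse major (gamma) satellite. 1 unit of it, chr9:3027538-3027771 on the plus strand, is printed as the yardstick, followed by 4 isolated peaks that match the array. In the peaks, capitals mark runs of at least 10 bases that occur in the array. The Mamdc2 intron peak (chr19:23431941-23432100, minus strand), the Litaf promoter peak (chr16:10975194-10975387, plus strand) and the Cdk5rap2 intron peak (chr4:70039182-70039312, minus strand) were retained, whereas the chromosome 6 peak (chr6:60637227-60637308, minus strand) was not.
satellite array unit: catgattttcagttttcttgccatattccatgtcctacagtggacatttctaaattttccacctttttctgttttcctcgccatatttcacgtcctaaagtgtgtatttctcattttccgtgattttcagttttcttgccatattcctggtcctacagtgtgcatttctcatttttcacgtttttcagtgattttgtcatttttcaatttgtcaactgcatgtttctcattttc
Mamdc2 intron: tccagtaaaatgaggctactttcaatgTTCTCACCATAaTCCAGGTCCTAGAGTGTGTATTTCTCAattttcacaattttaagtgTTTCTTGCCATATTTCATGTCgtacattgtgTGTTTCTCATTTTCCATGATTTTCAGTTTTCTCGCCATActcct
Litaf promoter: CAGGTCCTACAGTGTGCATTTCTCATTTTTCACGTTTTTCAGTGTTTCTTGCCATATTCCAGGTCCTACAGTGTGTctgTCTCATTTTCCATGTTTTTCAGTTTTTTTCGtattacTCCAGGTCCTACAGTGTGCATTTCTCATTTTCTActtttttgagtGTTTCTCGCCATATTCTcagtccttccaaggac
Cdk5rap2 intron: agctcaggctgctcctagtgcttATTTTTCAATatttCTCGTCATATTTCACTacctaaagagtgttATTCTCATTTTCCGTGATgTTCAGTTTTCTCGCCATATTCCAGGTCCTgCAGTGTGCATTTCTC
chromosome 6 peak: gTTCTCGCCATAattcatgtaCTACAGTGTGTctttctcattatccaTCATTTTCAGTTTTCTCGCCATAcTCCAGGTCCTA
Such runs covered 61.3% of the bases shown for Mamdc2, 81.4% for Litaf, 67.2% for Cdk5rap2 and 68.3% for the chromosome 6 peak. The copies are diverged: 12 of the 13 isolated peaks that match the array have a median 31-mer count of 1 in the genome.

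Among the isolated peaks, matches to the array were rare but often retained. Of 4682 isolated peaks, 13 matched the array (BLAST e-value of at most 1e-05), and 7 of these were retained, or 53.8% (29.1 to 76.8). Of the 4669 without a match, 23 were retained, or 0.493% (0.328 to 0.738). The other autosomal WT peaks showed the same order, with 42 of 54 matching peaks (77.8%, 65.1 to 86.8) and 440 of 17221 without a match (2.56%, 2.33 to 2.80) retained. In the KO list, 96 of 3775 peaks matched the array, and 94 of these 96 overlapped a WT peak. Over all KO peaks, 608 of 3775 (16.1%, 14.97 to 17.3) overlapped a WT peak. The array was taken as a yardstick after the retained sequences had been read, so these counts describe the lists and test nothing.

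The 7 retained array peaks all lay on high local background. Pileup is the number of fragments over the summit, and local background is the number the peak caller set against it, recovered as (pileup + 1) / fold − 1. The Mamdc2 intron peak had a WT pileup of 116 over a background of 28.3 and a fold of 4.00, and its KO peak had a pileup of 100 and shared 151 of 159 bp. The Litaf promoter peak, at a gene for a lysosomal membrane protein, had a pileup of 140 over a background of 49.97 in WT and a KO pileup of 127, with 192 of 193 bp shared. The spans of these peaks thus nearly coincided in the WT and KO lists. The Cdk5rap2 intron peak, in a gene for a centrosomal protein, had a pileup of 138 in WT and 126 in KO. The peak in the Ank1 promoter (chr8:24205970-24206307), a gene that links the membrane skeleton to membrane proteins, had 127 in WT and 112 in KO. The peak in an intron of Mdga2 (chr12:68160174-68160929), a synaptic cell surface protein, had 135 and 123, and the intergenic peak chr12:75904854-75905506 had 140 and 128. The remaining retained array peak, on chromosome 18, had 101 and 82. Each of these 7 had a lower pileup in KO, and how far the libraries differ in depth is not part of the lists. The lowest local background was also lower in KO, 1.07 against 1.16 in WT, and the part of depth in these pileups was not tested. The highest pileup was 140 over the whole WT list, held by 42 peaks, and 130 over the whole KO list. A WT peak at 140 could therefore only have a lower KO pileup.

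The 6 array peaks without a KO overlap were spread over a wider range. The chromosome 6 peak shown above had a pileup of 48 over a background of 5.26, a fold of 7.83, and the nearest KO peak was 1045120 bp away. The peak chr9:35112829-35113182 matched the array with 96.0% identity over 348 bp, had the highest pileup of the list, 140, over the highest background of any isolated peak, 91.4, and no KO peak within 295769 bp. Its fold of 1.53 was the lowest among the isolated peaks and its score, the −log10 q, was 2.52. The peak at the promoter of Vmn2r102 (chr17:19795565-19795696), a vomeronasal receptor gene, had a pileup of 37 and a KO peak 41370 bp away. The remaining array peaks lay at chr5:80558719-80558793, chr8:101406448-101406521 and chr11:107059931-107060395, with pileups of 13, 32 and 36. No array peak with a background of up to 10 was retained (0 of 4), against 7 of 9 above it. These groups also differed in the match itself. The chromosome 5 and chromosome 8 peaks matched the array over 30 bp each, and the chromosome 11 peak with 74.0% identity over 419 bp. The 7 retained matched over 107 to 766 bp, so this contrast does not separate background from length of match.

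High local background and retention went together beyond the array. Of 22 isolated peaks with a background over 10, 11 were retained (Wilson interval 30.7% to 69.3%), of which 7 matched the array and 4 did not. Of the 4660 with a background of up to 10, 19 were retained, or 0.408% (0.261 to 0.636). Among the other autosomal WT peaks the shares were 136 of 208 (65.4%, 58.7 to 71.5) and 346 of 17067 (2.03%, 1.83 to 2.25). The limit of 10 was set after the values were seen, and the part of local background in retention was not tested. In the classes set earlier, 9 of 2505 isolated peaks at the lowest background of 1.16 were retained, 8 of 1831 up to 1.5, 2 of 291 up to 3, and 11 of 55 over 3.

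**Figure D1:**
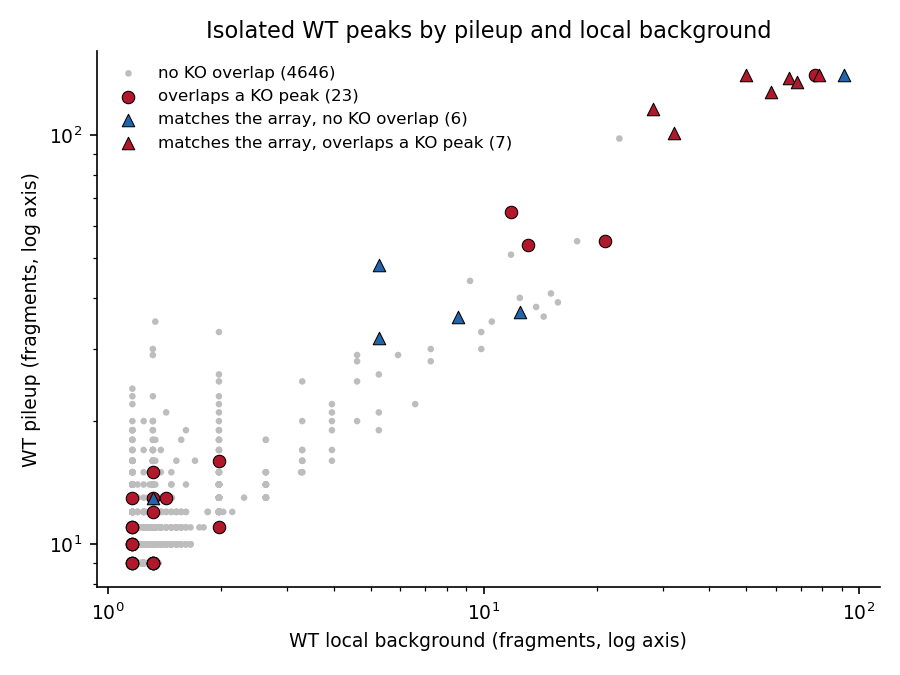
Each point is 1 isolated WT peak, placed by its WT local background and its WT pileup, both in fragments on log axes. Retained peaks are red and peaks matching the satellite array are triangles, with the number of peaks of each kind in brackets. The 11 retained peaks on the right have pileups of 54 to 140, and the other 19 lie among the many peaks of low pileup at the lower left.

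The 4 retained peaks on high background that did not match the array also had high pileups in both lists. An intron of Chl1, a neural cell adhesion gene (chr6:103599066-103599279), had a pileup of 140 in WT and 130 in KO, over a WT background of 76.3. The intergenic peaks chr7:27564968-27565058, chr6:21150611-21150759 and chr16:86821048-86821464 had WT pileups of 65, 54 and 55 and KO pileups of 37, 43 and 39. In all 11 pairs on high background the KO pileup was lower than the WT pileup. The medians were 127 in WT and 112 in KO, and the ranges 54 to 140 and 37 to 130. Since 140 and 130 were also the highest pileups of the lists, the order of pairs near them says little of the mark. The KO background at these 11 was also high, from 7.69 to 79.7 with a median of 51.7, against a median of 1.08 over the KO list as a whole. Their folds were low, with a WT median of 2.54 (range 1.78 to 5.14), against 4.63 over all isolated peaks. In KO the median fold at these 11 was 2.43 (range 1.60 to 4.38), against 4.84 over the KO list. The list gives a KO background only where a KO peak was called, so the other 11 places of high WT background have none.

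Of the 11 peaks on high background without a KO overlap, 3 reached the pileups of the 11 retained, the chromosome 9 array peak of pileup 140 and the next pair. The intergenic peak chr9:123782233-123782318 had the third highest score of the isolated peaks, 24.8, with a pileup of 98 over a background of 23.0, and its nearest KO peak was 142219 bp away. In an exon of Lars2 (chr9:123371067-123371273), which encodes mitochondrial leucyl-tRNA synthetase, a peak of pileup 55 over a background of 17.8 had its nearest KO peak at 268673 bp. The rest were lower. At the Kpna1 promoter (chr16:35981812-35981881), a nuclear import gene, the pileup was 41 over 15.1 and the nearest KO peak lay 1148590 bp away. The 11 unretained peaks on high background had pileups of 35 to 140 with a median of 40, against a median of 127 for the 11 retained.

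The 19 retained peaks on ordinary background had low pileups in both lists. Their WT pileups ran from 9 to 16 with a median of 10, and the KO pileups from 9 to 11 with a median of 10. Such values were ordinary for the lists: the median pileup was 9 over all isolated peaks and 10 over the whole KO list. The lowest pileup called was 9 in both lists, so these KO peaks lay at or just above the lowest value a peak could have. The KO pileup was lower in 10 pairs, equal in 5 and higher in 4. The WT peaks had a median width of 200 bp and the KO peaks of 77 bp. The highest score among them belonged to an intron of Bard1, the partner of the DNA repair protein Brca1 (chr1:71130971-71131118), with a pileup of 15 in WT and 9 in KO.

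**Figure D2:**
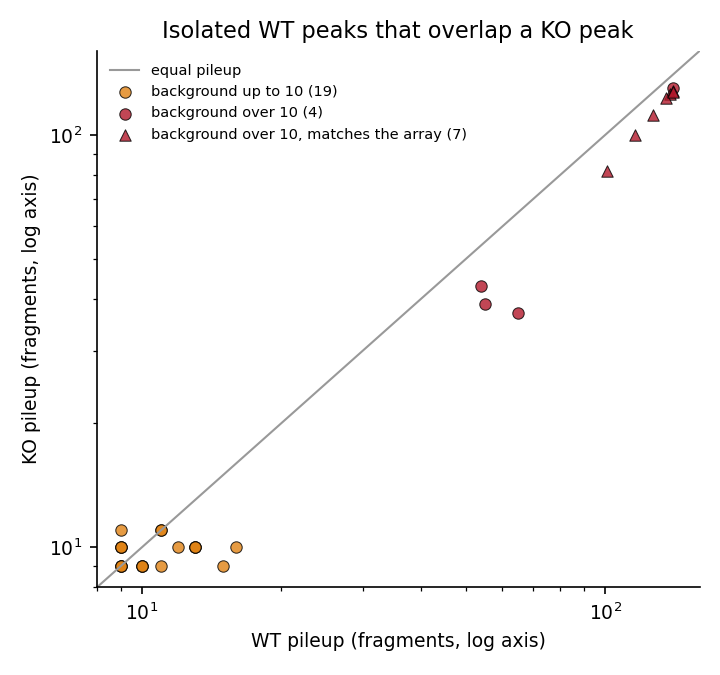
Each point is 1 of the 30 isolated WT peaks that overlap a KO peak, with its WT pileup and the pileup of the nearest overlapping KO peak in fragments on log axes. The 11 peaks with a WT background over 10 (red) lie at 54 to 140 in WT, all under the line of equal pileup. The other 19 (orange) lie at 9 to 16 in WT and 9 to 11 in KO, and points with the same values cover each other.

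Away from the peaks themselves, KO peaks were sparse. A KO peak lay within 1 kb of 65 isolated peaks (1.39%, 1.09 to 1.77; 5.86% of all WT peaks), within 10 kb of 182 (3.89%, 3.37 to 4.48; 14.4%) and within 50 kb of 526 (11.2%, 10.4 to 12.2; 27.4%). Within 200 kb the count was 1486 (31.7%, 30.4 to 33.1; 48.2%). The other autosomal WT peaks had a KO peak within 1 kb in 6.94% (6.57 to 7.33), within 10 kb in 17.4% (16.8 to 17.9), within 50 kb in 32.7% (32.0 to 33.4) and within 200 kb in 54.4% (53.7 to 55.1). At each distance the share of isolated peaks was below that of the others, with intervals that did not overlap. The rule leaves no other WT peak within 50 kb, so KO peaks that lie on such neighbours count only for the others. The lower shares at 1, 10 and 50 kb are therefore not independent of the rule. In a cluster 1 KO peak can also count for several WT peaks, which the intervals do not allow for. The median distance to the nearest KO peak was 429 kb for isolated peaks and 153 kb for the others, and 1255 isolated peaks (26.8%) had none within 1 Mb.

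**Figure D3:**
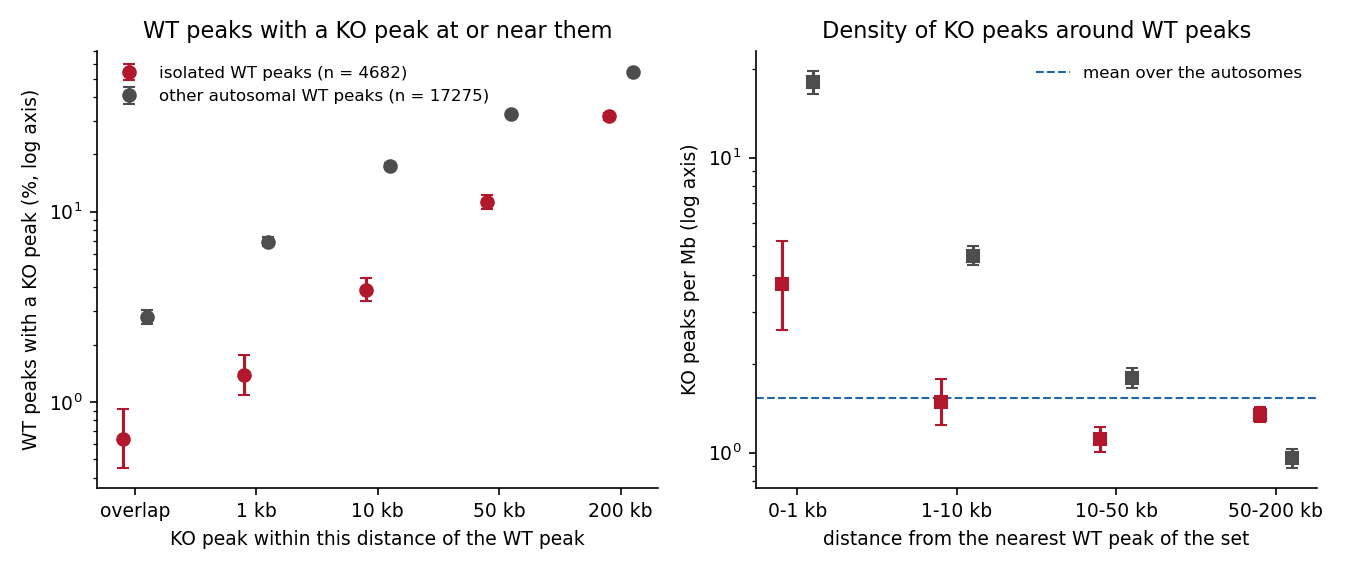
On the left, the share of WT peaks with a KO peak at or within each distance, in percent on a log axis with Wilson 95% intervals, which rises from 0.641% to 31.7% for isolated peaks and from 2.79% to 54.4% for the others. On the right, KO peaks per Mb in shells around the WT peaks, on a log axis with exact Poisson 95% intervals and the mean over the autosomes, 1.53 per Mb, as a dashed line.

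The density of KO peaks around isolated peaks was high only next to them. Counted in shells that leave out the peaks themselves, KO peaks numbered 3.74 per Mb (exact Poisson 95% interval 2.61 to 5.20, 35 peaks) within 1 kb, 1.48 (1.24 to 1.77) from 1 to 10 kb and 1.11 (1.00 to 1.22) from 10 to 50 kb. From 50 to 200 kb the density was 1.34 (1.27 to 1.42), and over the autosomes it was 1.53 (1.48 to 1.58). Around the other autosomal WT peaks it fell from 18.02 per Mb (16.4 to 19.7) within 1 kb to 4.65, 1.79 and 0.955 in the further shells. By the rule the shells up to 50 kb around an isolated peak hold no other WT peak, so the KO peaks there are absent from the WT list. Of 3668 autosomal KO peaks, 556 (15.2%, 14.03 to 16.4) lay within 50 kb of an isolated peak and overlapped no WT peak. Of these 556, 9.89% (7.68 to 12.7) had over 1000 copies in the genome, and of the 2557 farther away that overlapped no WT peak, 6.65% (5.75 to 7.68).

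As a group the isolated peaks were small. Their median pileup was 9 fragments and their median width 112 bp, against 10 and 145 bp for the other autosomal WT peaks, and the median fold was 4.63 in both. The lowest pileup was held by 2410 isolated peaks (51.5%, 50.04 to 52.9) and by 40.8% (40.1 to 41.5) of the others, and 174 isolated peaks (3.72%, 3.21 to 4.30) reached 15 or more, against 9.18% (8.75 to 9.61). The gap to the nearest WT peak had a median of 109 kb and reached 1778 kb. The smallest gaps inside the rule were 50037, 50068 and 50089 bp, and the largest outside it were 49947, 49947 and 49937 bp. The widest isolated peaks measured 995, 991 and 971 bp, while 16 peaks with no near neighbour were left out as too wide, the narrowest at 1028 bp.

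The share retained was also compared within classes of pileup. Among peaks with a pileup of 9, 7 of 2410 isolated peaks (0.290%, 0.141 to 0.598) and 45 of 7045 others (0.639%, 0.478 to 0.854) were retained. The shares were 0.376% (0.173 to 0.818) and 1.02% (0.794 to 1.30) at a pileup of 10 or 11, and 0.795% (0.310 to 2.03) and 2.43% (1.90 to 3.10) at 12 to 14. At 15 or more they were 7.47% (4.42 to 12.4, 13 of 174) and 19.7% (17.9 to 21.8, 313 of 1585). The intervals overlapped in the classes 9, 10 or 11 and 12 to 14, and did not at 15 or more. Of the 13 retained isolated peaks of 15 or more, 11 were those on high background. Without peaks of a background over 10, the shares at 15 or more were 1.32% (0.362 to 4.67, 2 of 152) and 12.9% (11.2 to 14.7, 177 of 1377).

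By width, the share of isolated peaks retained was highest in the widest class. It was 0.248% (0.106 to 0.580) up to 100 bp, 0.696% (0.389 to 1.24) from there to 200 bp, 0.649% (0.298 to 1.41) to 500 bp and 4.94% (2.52 to 9.44, 8 of 162) above that. The other autosomal WT peaks in these classes had 1.39% (1.11 to 1.73), 1.78% (1.48 to 2.15), 3.89% (3.37 to 4.49) and 6.38% (5.00 to 8.11), so the intervals overlapped only over 500 bp. Overlap was counted from 1 bp, and a wider peak offers more bases for it, which these shares do not allow for.

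Isolated peaks were richer in highly repeated sequence than the others. The copy number of a peak is the median count of its 31-mers in the genome, and it was over 1000 in 1995 isolated peaks (42.6%, 41.2 to 44.0) and in 31.4% (30.8 to 32.2) of the others. Sequence of 1 copy made up 1499 isolated peaks (32.0%, 30.7 to 33.4) and 29.0% (28.4 to 29.7) of the others. Between these ends, over 1 to 10 copies were held by 309 (6.60%, 5.92 to 7.35) and by 18.01% (17.4 to 18.6). Retention was low in each class of isolated peaks, at 13 of 1499 with 1 copy, 5 of 309, 2 of 484, 1 of 395, and 9 of 1995 over 1000 copies. The 13 include all 7 retained peaks that match the satellite array. Among the others the share was highest at over 1 to 10 copies, 6.85% (6.01 to 7.79), where isolated peaks had 1.62% (0.693 to 3.73). Reads that fit several places were put at 1 of them at random, so for repeated sequence the position of a peak within its family is uncertain.

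**Figure D4:**
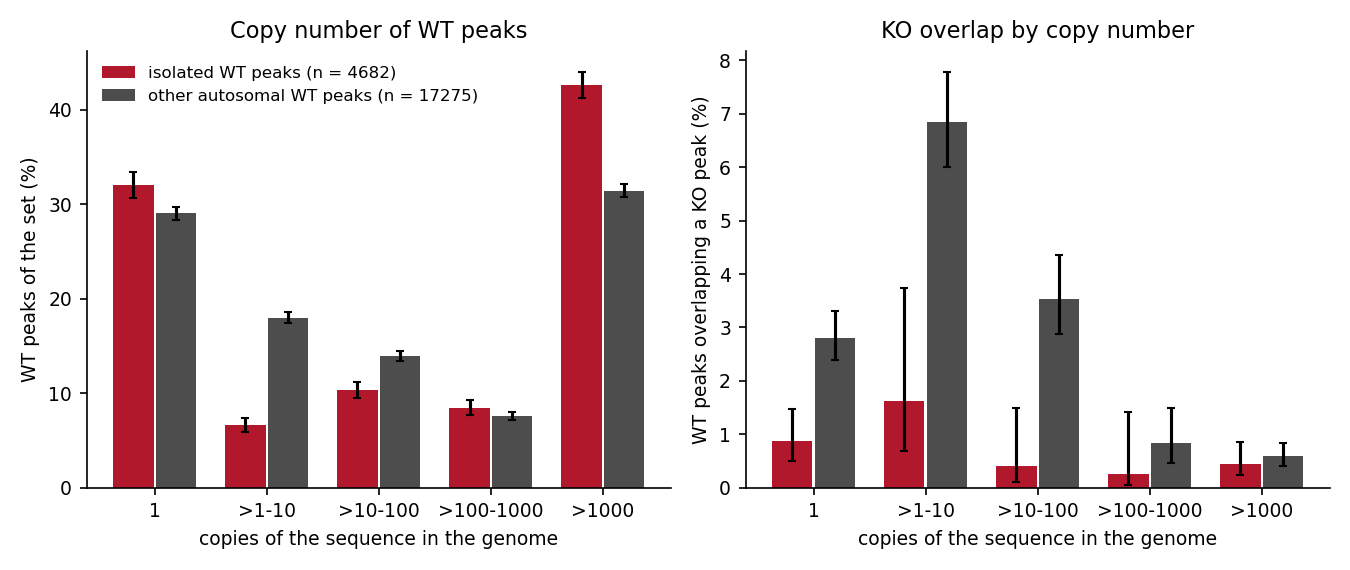
On the left, the share of isolated and other autosomal WT peaks in each class of genome copy number, and on the right the share of each class that overlaps a KO peak, both in percent with Wilson 95% intervals as error bars. The class over 1000 copies holds 42.6% of isolated peaks, and 0.451% of that class overlaps a KO peak.

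Many isolated peaks, above all those of high copy number, lay near LINE-1 coding sequence. A peptide of 10 residues from the LINE-1 reverse transcriptase marked 1732 isolated peaks (37.0%, 35.6 to 38.4) within 4 kb, and 34.7% (34.0 to 35.4) of the others. Of the 1995 isolated peaks of over 1000 copies, 1380 were within 4 kb of it (69.2%, 67.1 to 71.2), a lower share than among the others of that class (75.6%, 74.5 to 76.8). No repeat annotation was used, so nearness to the peptide does not assign a peak to an element. The peaks lay mainly on its upstream side in the sense direction: 1373 had their centre 0 to 3.5 kb upstream and 340 up to 3.5 kb downstream. The peak of this distribution was 2 to 2.5 kb upstream, with 427 of the 1995 isolated peaks of over 1000 copies (21.4%), and the other autosomal peaks had it in the same place. Of the isolated peaks within 4 kb of the peptide, 8 were retained, or 0.462% (0.234 to 0.909), against 1.30% (1.04 to 1.62) of the others there. In the KO list 15.2% (14.1 to 16.4) of peaks lay within 4 kb of the peptide.

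**Figure D5:**
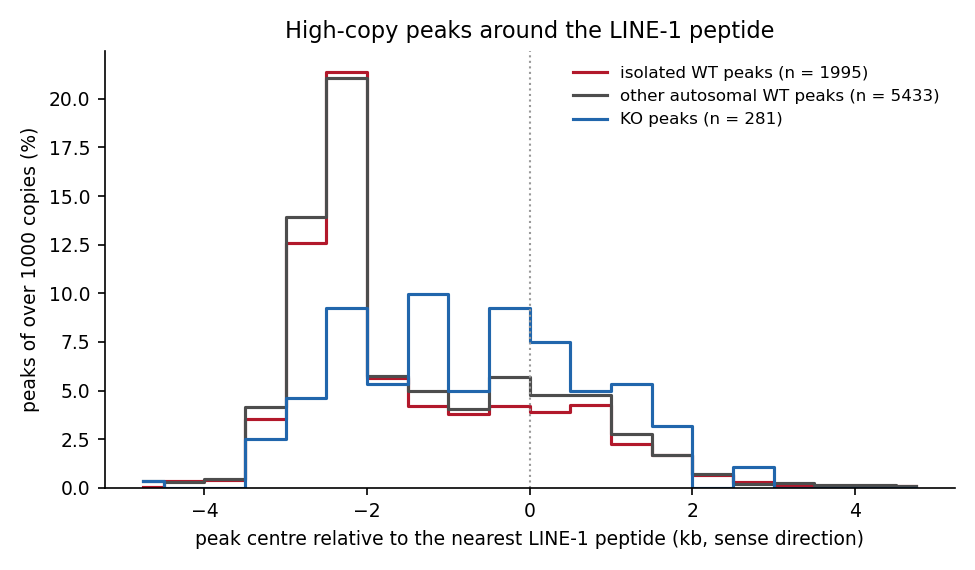
Position of the centre of each peak of over 1000 copies relative to the nearest LINE-1 peptide, in kb along the sense direction in bins of 500 bp, as a percentage of all such peaks in each set. Isolated peaks reach 21.4% in the bin 2 to 2.5 kb upstream, and the other autosomal WT peaks follow the same outline.

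A short stretch of sequence was shared by many isolated peaks. The 31-mer found in the most isolated peaks was present in 279 of them (5.96%, 5.32 to 6.67), in 733 others (4.24%, 3.95 to 4.55) and in 1096 WT peaks in all, and it occurs 12185 times in the genome. This 31-mer was picked by its count in the isolated peaks, so their higher share is not independent of that choice. In the KO list 5 of 3775 peaks held it. It is shown in capitals in the isolated peaks of up to 300 bases with the highest score among those not retained, chr14:40482834-40482957 (minus strand), and among those retained, chr3:81422025-81422276 (plus strand), both written along the sense strand of the nearest LINE-1 peptide.
chromosome 14 peak: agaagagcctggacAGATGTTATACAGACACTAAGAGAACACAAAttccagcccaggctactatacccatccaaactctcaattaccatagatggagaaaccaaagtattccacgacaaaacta
chromosome 3 peak: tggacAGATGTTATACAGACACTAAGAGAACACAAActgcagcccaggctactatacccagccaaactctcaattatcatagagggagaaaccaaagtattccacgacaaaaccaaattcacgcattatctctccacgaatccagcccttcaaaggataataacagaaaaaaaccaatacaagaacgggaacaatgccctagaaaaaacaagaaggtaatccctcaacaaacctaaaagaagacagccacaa
The chromosome 14 peak had a pileup of 21 and a fold of 9.07 and lay 1810.5 bp upstream of the peptide. The chromosome 3 peak had a pileup of 10 in WT and 9 in KO and lay 2253.5 bp upstream. Of the 279 isolated peaks with the 31-mer, 4 were retained (1.43%, 0.559 to 3.63), against 0.591% (0.403 to 0.864) of those without it and 1.77% (1.04 to 3.01) of the others that hold it, and these intervals overlap.

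The strongest isolated peaks held other repeats as well. Of the 10 with the highest score, from 18.4 to 30.9, 5 had over 1000 copies, 4 had a background over 10 and 3 were retained, all 3 on high background. The highest score, 30.9, belonged to chr15:38238254-38238349, whose pileup was 35 and fold 15.4, in sequence of 26073 copies. It is a run of a hexamer, marked by capitals. The isolated peak at the promoter of Il15ra (chr2:11638915-11638984), the gene of an interleukin receptor chain, is shown beside it because it is a run of the same hexamer, and both are on the plus strand.
chromosome 15 peak: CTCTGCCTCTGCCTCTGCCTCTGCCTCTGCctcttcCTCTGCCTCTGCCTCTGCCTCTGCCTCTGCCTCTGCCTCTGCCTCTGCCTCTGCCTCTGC
Il15ra promoter: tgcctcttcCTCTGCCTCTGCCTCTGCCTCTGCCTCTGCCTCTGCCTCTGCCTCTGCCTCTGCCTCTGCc
The hexamer CTCTGC stood 15 times in the chromosome 15 peak and 10 times in the Il15ra peak. The Il15ra peak had a pileup of 17 and 26462 copies, and the nearest KO peak lay 277270 bp away. The peak chr13:26332119-26332245 had a pileup of 30 and a fold of 13.4 over 12923.5 copies, and chr13:82960942-82961290 had 24 and 11.6 over 3999 copies at 2275 bp upstream of a LINE-1 peptide. Neither was retained, with KO peaks 1647480 and 764285 bp away.

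Few isolated peaks lay on full-length ERVs. Of 1083 full-length copies of 5 families in the study's list, the 593 IAPEz copies accounted for 98 isolated peaks within 1 kb, MMERVK10C for 24, RLTR6-int for 13, MMVL30 for 3 and RLTR4_MM for 2. In all 140 isolated peaks (2.99%, 2.54 to 3.52) and 650 others (3.76%, 3.49 to 4.06) lay within 1 kb of a copy. The lower share was not general to the families. For MMERVK10C the shares were 0.513% (0.345 to 0.762) and 1.58% (1.40 to 1.78), and for IAPEz 2.09% (1.72 to 2.54) and 1.80% (1.61 to 2.01). For IAPEz, RLTR6-int, MMVL30 and RLTR4_MM the intervals of isolated peaks and others overlapped. Of the 140, 0 were retained, which allows a share of up to 2.67% by the Wilson interval and so does not set them apart from the 0.641% of all isolated peaks. Of the 650 others 6 were retained (0.923%, 0.424 to 2.00). The strongest was an IAPEz peak inside Cdan1 and Ttbk2 and outside their exons (chr2:120644159-120644461). Its pileup was 29 and its fold 12.96, and the nearest KO peak lay 1593580 bp away. The peak of the next highest score on IAPEz, chr1:142936563-142937093, had a pileup of 16 and a fold of 7.34. On MMERVK10C the highest was chr3:96122436-96122520, with 19 and 7.66.

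Relative to genes, isolated peaks lay farther from coding starts but more often in introns. The median distance to the nearest start of a coding transcript was 70.9 kb for isolated peaks and 44.5 kb for the others. Gene bodies held 1280 isolated peaks (27.3%, 26.1 to 28.6) and 23.6% (23.0 to 24.3) of the others. With each peak put in 1 class in the order promoter, exon, intron and intergenic, introns held 25.2% (24.02 to 26.5) against 19.4% (18.8 to 19.99). Promoters, from 2 kb upstream to 0.5 kb downstream of a start, held 145 isolated peaks (3.10%, 2.64 to 3.63) and 4.20% (3.91 to 4.51) of the others. Of the 145, 2 were retained, both of the satellite type (Litaf and Ank1), and in the other set 61 of 725 were. Exons outside promoters held 39 isolated peaks, of which 0 were retained.

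Among the 98 isolated peaks on promoters of coding genes, the 12 with the highest score ranged from 4.27 to 19.5. Besides Litaf, Ank1 and Il15ra they lay at Zfp354c, Atp8b1, Rln1, Eml2, Epo, Tcfap2c, Gm5805, Sall1 and Sec62. The peak at Zfp354c, a KRAB zinc finger gene (chr11:50641869-50641984), had a pileup of 22, a fold of 10.6 and 14017 copies. At Epo, the gene of erythropoietin (chr5:137928249-137929086), a peak of 837 bp had a pileup of 13 in sequence of 1 copy, and its nearest KO peak lay 232359 bp away. At Sall1, a transcription factor of kidney development (chr8:91568681-91568970), the pileup was 12 and a KO peak lay 58936 bp away. Of the 12, 9 were of 1 copy and 10 were not retained.

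Single-copy peaks are those whose 31-mers have a median count of 1 in the genome, and 3 at named genes are shown. That count does not make a place certain, since 12 of the 13 isolated peaks that match the array also had it. The 3 shown lay on a local background of up to 1.315. Igf2 encodes a paternally expressed growth factor (chr7:149847599-149847685), Eml2 a microtubule-associated protein (chr7:19761159-19761304) and Usp18 a protease that removes Isg15 and dampens interferon signalling (chr6:121208020-121208208). Capitals mark CpG dinucleotides and the plus strand is given.
Igf2 promoter: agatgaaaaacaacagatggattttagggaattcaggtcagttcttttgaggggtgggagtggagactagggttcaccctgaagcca
Eml2 promoter: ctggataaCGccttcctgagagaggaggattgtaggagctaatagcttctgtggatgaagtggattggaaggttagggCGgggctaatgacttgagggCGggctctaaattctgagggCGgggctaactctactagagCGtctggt
Usp18 intron: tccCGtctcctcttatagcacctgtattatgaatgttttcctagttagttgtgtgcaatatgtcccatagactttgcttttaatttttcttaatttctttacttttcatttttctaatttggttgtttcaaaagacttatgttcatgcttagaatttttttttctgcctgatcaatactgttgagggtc
The Igf2 peak held 0 CpG, the Eml2 peak 5 and the Usp18 peak 1. The Igf2 peak overlapped the promoter of a transcript of the gene, with a pileup of 9 and a fold of 4.32, and the nearest KO peak was 363573 bp away. The Eml2 peak had a pileup of 13 and a fold of 6.05, with a KO peak at 807319 bp. The Usp18 intron peak had a pileup of 9 and a fold of 4.63, with a KO peak at 1226840 bp. The pileups at Igf2 and Usp18 were the lowest called.

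Isolated peaks in or within 5 kb of the listed genes numbered 10 in all. Of these 0 were retained, too few to be set against the 0.641% of all isolated peaks. The share over all annotated genes was not computed. Isolated peaks made up 10% (3.96 to 23.1) of the autosomal WT peaks at imprinted genes and 15.4% (6.15 to 33.5) at germline genes. Both intervals cover the 21.3% of all autosomal WT peaks. Among 17 interferon genes only Usp18 had one. Of 26 genes of the H3K9 methylation pathway, 25 were annotated and 1 had one, Mphosph8, which encodes a reader of H3K9me3 in the HUSH complex (chr14:57312847-57312916, pileup 11). Of 44 imprinted genes, 42 were annotated and 3 had 4 peaks: Mest (chr6:30685100-30685169), Igf2, and Kcnq1 with peaks of pileup 9 and 11. Of 32 germline genes 4 had 1 peak each. Tdrd1, a factor of the piRNA pathway (chr19:56922070-56922885), had a pileup of 28 over a background of 4.60, Sohlh2 had 11, and Hormad1 and Cyct had 9 each.

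Of the gene families in clusters, the Zfp, Olfr and Vmn genes held a smaller share of isolated peaks than the autosomes as a whole, and the interval at the Pcdh genes covered that share. The 374 annotated Zfp genes had 13 isolated and 343 other autosomal WT peaks in or within 5 kb, the Pcdh genes 8 and 32, the 1249 Olfr genes 13 and 88, and the 433 Vmn genes 12 and 94. Isolated peaks thus made up 3.65% (2.15 to 6.15) of the peaks at Zfp genes, 20% (10.5 to 34.8) at Pcdh, 12.9% (7.68 to 20.8) at Olfr and 11.3% (6.60 to 18.8) at Vmn genes, against 21.3% (20.8 to 21.9) of all autosomal WT peaks. Of the 46 isolated peaks at these families 0 were retained, which allows up to 7.71%, and of the 556 others 9 were (1.62%, 0.854 to 3.05). Isolation depends on how many WT peaks lie nearby, so a low count in a cluster of peaks follows from the rule.

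Isolated peaks were found on each autosome. Their number ran from 118 on chromosome 19 to 387 on chromosome 1, and their share of the WT peaks of a chromosome from 14.8% (13.2 to 16.5) on chromosome 10 to 31.8% (28.2 to 35.6) on chromosome 16. Retained isolated peaks numbered 0 to 4 per chromosome, with 0 on chromosomes 2, 5, 10 and 13 and 4 each on chromosomes 6 and 12. Base composition was much like that of the other peaks, with a median GC content over 500 bp of 38.2% and 37.8%. Across quartiles of GC content set on all autosomal WT peaks, 7 of 1015, 6 of 1213, 12 of 1148 and 5 of 1306 isolated peaks were retained, from lowest to highest GC.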

How the data were processed

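H3K9me3 ChIP-seq peak lists of WT and KO Setdb1 cKO iMEFs, 1 library each, were analysed. The 5 other samples (forebrain libraries and inputs) were not used here. Single-end reads were mapped by the authors against mm9 (Bowtie2 2.2.3), who placed reads that fit several sites at 1 of them at random and removed duplicates with Picard. Peak calling used MACS 2.1.0.20140616 per the file headers, and its options are not given in the sources used here. The deposited pileup is a signal, the fragment coverage at the summit. The fold enrichment, as deposited, is a ratio, pileup over local background with 1 added to each. The deposited −log10 p and −log10 q belong to single peaks, and the latter is called the score. Read totals are not part of the lists, and the study's methods give those of the iMEF libraries only as a range. Whether starts count from 0 or 1 is not stated, so positions and printed sequences carry an uncertainty of 1 bp.

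Overlap was 1 bp or more, and distances ran between nearest ends. Genes were those of GENCODE M1 on NCBIM37 (mm9). Copy number was counted over both strands of the mm9 chromosomes, and satellite matches came from BLAST 2.17.0 with a word size of 11. The LINE-1 peptide and the satellite array were chosen after sequences of these peaks were seen. Peaks named were the 15 retained peaks with the highest score, the 10 highest scores of all, the 12 highest on coding promoters, up to 5 per ERV family, those near listed genes, those on high background or matching the array, and the highest scores with the shared 31-mer. Members and lists were chosen with earlier results of these data known. Interval and copy-number code was tested on simulated data, and overlaps were checked with bedtools 2.31.1. Scripts ran in Python 3.11.15 (pysam 0.24.0, numba 0.67.0, scipy 1.17.1, pandas 2.3.3).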

Additional observations from a re-analysis of the deposited data

How the results depend on the processing

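Of 61 values recomputed for 10 results under other settings, 26 stayed within 1.5 times the count or within the 95% interval of the share reported, and 35 did not. Under no setting was the share of isolated WT peaks with a KO peak as high as that of the other autosomal WT peaks, where both were computed. For KO peaks within 50 kb this order is not independent of the isolation rule. An isolation distance of 100 kb left 2566 isolated peaks. It gave 3.35% of them a KO peak within 10 kb and 8.85% within 50 kb, and 2.55% and 30.7% of the others an overlap and a KO peak within 50 kb. It put 30.7% of isolated peaks in gene bodies, 3.66% on promoters and 3.55% near an ERV copy. A distance of 25 kb gave 13.9% of isolated peaks within 50 kb, 3.14% of the others an overlap and 34.6% within 50 kb, and 25.8% in gene bodies. With only WT peaks of a score at or above the median, isolation was judged anew among them. This gave 3880 isolated peaks, in part other peaks than those of the main rule. They had an overlap in 0.954% and a KO peak within 1, 10 and 50 kb in 2.11%, 5.75% and 14.3%. The others had 4.91% and 39.7% for an overlap and for 50 kb. With only KO peaks of such a score the shares of isolated peaks were 0.363%, 0.662%, 1.45% and 3.42%, and of the others 1.84% and 18.99%. An overlap of at least 50% of the WT peak gave 0.342% and 1.53%. Single-copy peaks alone gave 2.00%, 5.00% and 12.5% of isolated peaks within 1, 10 and 50 kb, and 34.7% of the others within 50 kb. This setting kept the 7 retained isolated peaks that match the satellite array. Merging WT peaks within 1 kb gave 31.4% of the others within 50 kb. Coding genes alone held 25.3% of isolated peaks, and promoters from 5 kb upstream held 7.01%. Chosen after seeing the data, leaving out peaks with a background over 10 gave an overlap in 0.408% of isolated peaks and 2.03% of the others, and leaving out those that match the satellite array gave 0.493% and 2.56%. No paired analysis was possible because WT and KO had 1 library each. The study's methods give the mapped reads of the iMEF libraries as a narrow range and not per library, so a difference in depth between WT and KO was not corrected for. A KO peak that falls under the lowest pileup called, 9, is missing from the list, and whether H3K9me3 was lost there or fell under that limit cannot be told apart.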
